A study of Mus musculus with 6 samples.

Results

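The 9 genes described here encode the enzymes and transporters that make, store, take back and break down catecholamines: TH, DDC, DBH, PNMT, GCH1, SLC18A1, SLC18A2, SLC6A2 and MAOA. They were chosen by name, and 9 of 9 were found among the 18417 genes that a single gene symbol names on the array, each with 1 probe set. SK-N-BE(2), an established human line of neuroblastoma cells with amplified MYCN, had been injected into the adrenal gland of NSG mice, which lack T, B and natural killer cells. From day 7 after injection, 3 mice received 400 µg of the CXCR4 inhibitor BL-8040 under the skin on 14 days in a row. The other 3 mice were controls with the same cells, site and strain, and the sources used here do not say what they received. Each tumour was read on 1 array of human probe sets, and the labels used here give no age of the mice. All tumours share 1 cell line, and stroma and vessels of the host can be part of them. Mouse RNA can add to a signal where it binds a human probe, and its part was not measured.

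Catecholamines are made from the amino acid tyrosine. Tyrosine hydroxylase (TH) makes DOPA in the rate-limiting step with tetrahydrobiopterin as cofactor, which GTP cyclohydrolase (GCH1) begins to make. DOPA decarboxylase (DDC) turns DOPA into dopamine, dopamine beta-hydroxylase (DBH) turns dopamine into noradrenaline inside vesicles, and PNMT turns noradrenaline into adrenaline. The vesicular monoamine transporters VMAT1 (SLC18A1) and VMAT2 (SLC18A2) load the vesicles, the noradrenaline transporter (SLC6A2) takes released noradrenaline back, and monoamine oxidase A (MAOA) degrades it. Sympathetic neurons and adrenal chromaffin cells share this pathway. Neuroblastoma arises from the same lineage, and catecholamine breakdown products in urine are used in its diagnosis.

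Values are log2 signals. Array medians lay between 5.35 and 5.42. On the first principal component over all genes (37.2% of the variance), BL-8040 replicate 3 lay at -22.7 and the remaining 5 arrays between -0.743 and 10.1. Differences of the 9 genes that rest on this array are given with and without it. Of 9 measured neuroblastoma cell markers, MYCN ranked at percentile 99.9 of all genes by signal, CHGB at 91.3, ISL1 at 89.97 and GATA3 at 91.6. The others ranged from 49.2 (ELAVL4) to 99.7 (STMN2), with CHGA at 71.9 and PHOX2A at 73.9. A percentile ranks the brightness of a probe set and does not compare the amounts of different transcripts.

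In the BL-8040 tumours 8 of the 9 genes had a lower mean than in controls, with a median difference of -0.22 on the log2 scale, against -0.02 over all genes, of which 58.5% had a difference below 0. BL-8040 replicate 3 held the lowest of the 6 values in 7 of the 9 genes, and in 30.5% of all genes. The lowest means relative to controls were those of TH (0.643 times), DBH (0.651 times) and SLC18A1 (0.698 times), and in these genes the spread between tumours was wide. A difference of -0.3 or lower was found in 3 of the 9 genes, where 1.75% of all genes had one. SLC6A2 (0.888 times) and MAOA (0.856 times) differed by less, but in both the treated tumours lay below every control. GCH1 and PNMT had nearly the same mean in both groups. None of the 9 genes passed the test: the limma adjusted p over all genes was at least 0.644 in each, and 0% of all 18417 genes were called at an adjusted p under 0.05. At an unadjusted p under 0.05, 2 of the 9 genes were lower and 0 higher, where 5.08% of all genes were lower and 2.64% higher (7.72% in either direction). Without BL-8040 replicate 3 the median difference of the 9 genes was -0.15, with 7 lower and 2 higher, and 0 genes of the 9 had an unadjusted p under 0.05. The 2 genes were SLC6A2 and MAOA. With each array centred on its median their unadjusted limma p was 0.0598 and 0.0603, and SLC18A1 alone was below 0.05, at 0.0499.

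**Figure D1:**
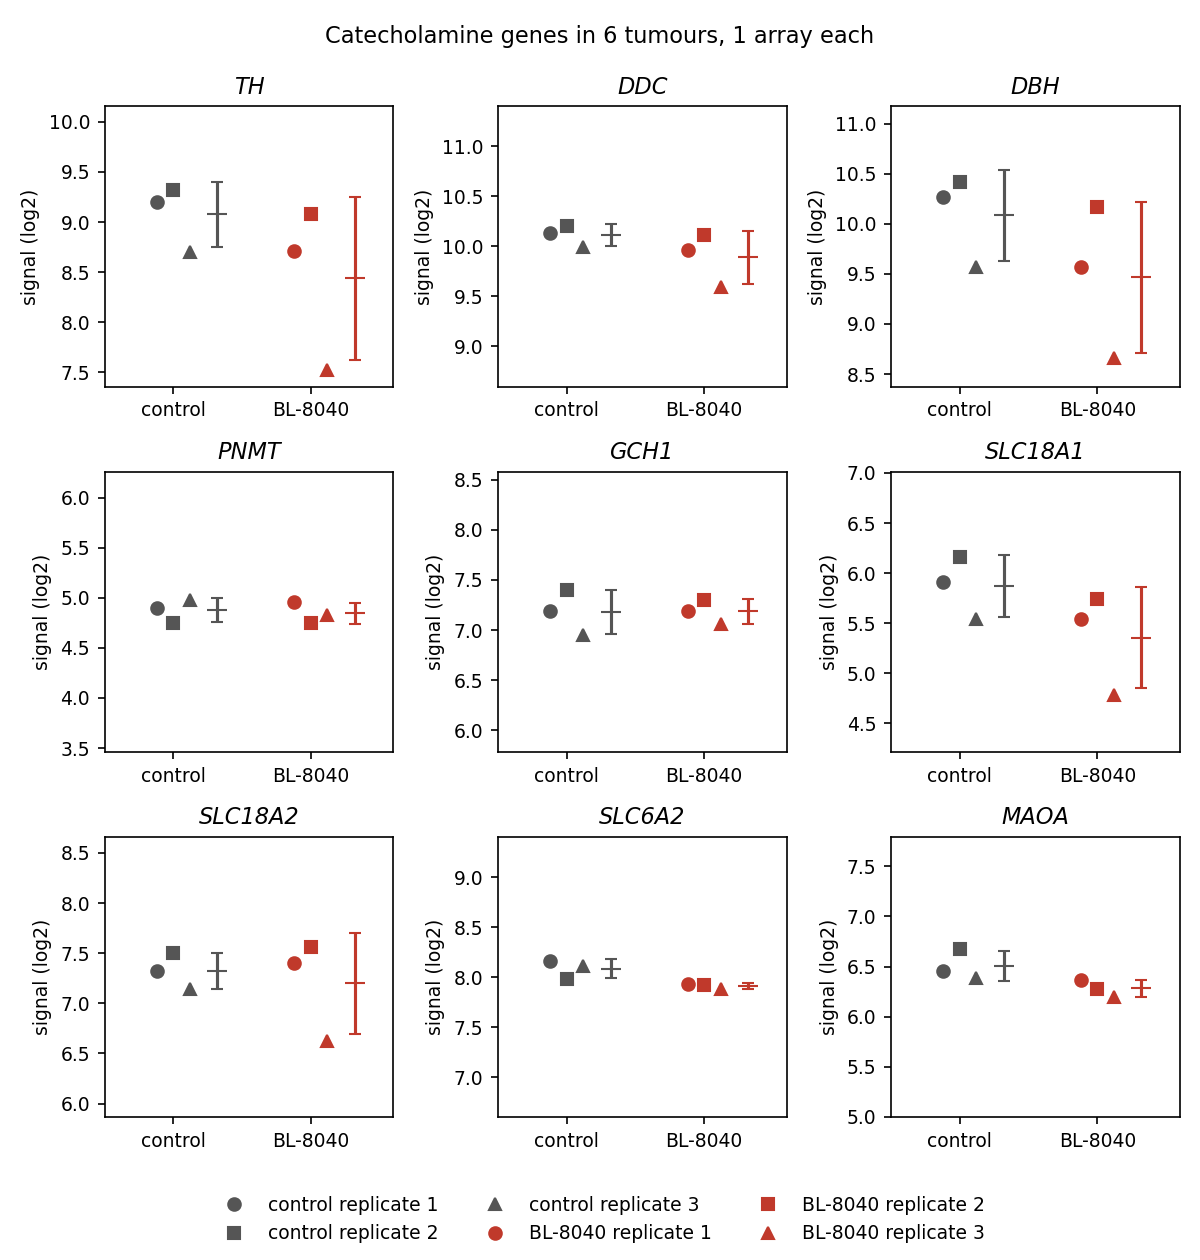
Signal (log2) of the 9 genes in each tumour; points are single arrays, with group means and SD (n = 3 each) as bars, and every panel spans the same range of log2 units. BL-8040 replicate 3 is the lowest point for 7 of the 9 genes, and the groups separate in SLC6A2 and MAOA.

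The TH signal in treated replicates 1, 2 and 3 was 8.71, 9.08 and 7.53, and in controls 1, 2 and 3 it was 9.20, 9.32 and 8.70. BL-8040 replicate 3 was far below all others, BL-8040 replicate 1 lay beside control replicate 3, and the groups overlapped. The treated mean was 8.44 ± 0.81 and the control mean 9.08 ± 0.33 (SD, n = 3 each), a difference of -0.64 with a 95% interval from -1.42 to 0.14 (limma adjusted p = 0.662). Leaving out BL-8040 replicate 3 gave a TH difference of -0.18, and leaving out BL-8040 replicate 2 one of -0.96. In bulk tumour RNA, fewer cells of a type and less RNA per cell cannot be told apart.

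DBH, the noradrenaline-forming enzyme, showed the same order of tumours. Its signal in treated replicates 1 to 3 was 9.57, 10.16 and 8.66, against 10.26, 10.42 and 9.57 in controls. Control replicate 3 was as low as BL-8040 replicate 1, and BL-8040 replicate 2 came close to the 2 high controls. The difference of DBH was -0.62, with a 95% interval from -1.41 to 0.17 and a limma adjusted p of 0.669. The value went to -0.22 when BL-8040 replicate 3 was left out and to -0.97 when BL-8040 replicate 2 was.

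DDC, which acts between the other two enzymes and also serves serotonin synthesis, varied over a narrower range. Its values were 9.96, 10.11 and 9.59 after BL-8040 and 10.13, 10.20 and 9.99 in controls, again with BL-8040 replicate 3 lowest and control replicate 2 highest. The DDC means were 9.89 ± 0.27 and 10.11 ± 0.11 (SD, n = 3 each), and the difference was -0.22 (95% interval -0.51 to 0.07, limma adjusted p = 0.678). It was -0.07 without BL-8040 replicate 3. From the lowest to the highest tumour the signal spanned 3.46-fold for TH and 3.38-fold for DBH, but 1.53-fold for DDC. The within-group SD of TH (0.618) and of DBH (0.623) ranked at percentile 99.9 of all genes, whose median within-group SD was 0.106. That of DDC (0.205) ranked at percentile 90.9. The controls alone spanned 0.61 log2 units in TH and 0.85 in DBH, so a wide spread was present without treatment too.

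PNMT, the adrenaline-forming enzyme that marks adrenaline-making chromaffin cells, was dim, at percentile 31.5 of all genes. Its values of 4.96, 4.75 and 4.83 after BL-8040 and 4.90, 4.75 and 4.98 in controls covered the same range. The difference was -0.03, with a 95% interval from -0.23 to 0.17 (limma adjusted p = 0.932). No detection call was available, so whether PNMT was detected at all is not known.

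GCH1, the first enzyme of tetrahydrobiopterin synthesis, stood at 7.19, 7.30 and 7.06 after BL-8040 and at 7.19, 7.40 and 6.95 in controls. The lowest and the highest value were both controls. Its difference was 0.01, with a 95% interval from -0.26 to 0.27 (limma adjusted p = 0.989). With 3 arrays a group, changes within this interval remain possible. Of the 6 other genes that make, recycle or regulate the cofactor, 2 were higher and 4 lower, with a median difference of -0.06 and 0 at an unadjusted p under 0.05. PCBD1, which recycles the oxidised cofactor, had treated values below all controls (difference -0.17, limma adjusted p = 0.646); over all genes, 9.05% lay wholly lower. PTS (-0.05), SPR (-0.07) and QDPR (-0.08), which complete synthesis and regeneration, and GCHFR (0.09), the feedback regulator of GCH1, differed by less than 0.1 log2 units.

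Of the vesicular transporters, SLC18A1 (VMAT1), the form typical of endocrine chromaffin cells, stood at 5.54, 5.74 and 4.78 after BL-8040 and at 5.91, 6.16 and 5.54 in controls. BL-8040 replicate 3 was again lowest, and BL-8040 replicate 2 lay above control replicate 3. The difference was -0.52, with a 95% interval from -1.06 to 0.02 and a limma adjusted p of 0.646. It was -0.23 without BL-8040 replicate 3. SLC18A1 was of middling brightness (percentile 43.1), yet its within-group SD of 0.419 ranked at percentile 99.5. In BL-8040 replicate 3 it was dim, at percentile 30.4 of that array, where PNMT was at 31.2. Whether SLC18A1 was detected in that array is not known.

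SLC18A2 (VMAT2), the form typical of neurons, stood at 7.41, 7.57 and 6.62 after BL-8040 and at 7.32, 7.50 and 7.15 in controls. Its highest and its lowest value were both treated tumours. The difference of -0.12 (95% interval -0.62 to 0.37, limma adjusted p = 0.882) turned to 0.16 without BL-8040 replicate 3. The 2 transporters could thus be compared within each tumour. The log2 ratio of SLC18A1 to SLC18A2 signal in treated replicates 1 to 3 was -1.86, -1.83 and -1.84, against -1.41, -1.33 and -1.60 in controls, so the treated tumours lay together and below every control. The ratio differed by -0.40, both with all arrays and without BL-8040 replicate 3, and the exact two-sided permutation p was 0.1, below which a test of 3 against 3 arrays cannot go. This ratio was singled out after its values were seen, among 36 pairs of the 9 genes, and after adjustment over the 36 pairs the exact permutation p was 0.771. Groups also did not overlap in the ratio of TH to SLC18A2 (difference -0.51), GCH1 to SLC18A1 (0.53) and GCH1 to MAOA (0.23), 4 of the 36 pairs in all. As background, the log2 ratio to each other gene on the array separated the groups for 0.402% of genes with SLC18A2, 2.17% with TH, 2.95% with GCH1, 10.9% with SLC18A1 and 34.7% with MAOA. A ratio of this kind shows unequal change of 2 signals and not which of them changed.

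SLC6A2, the noradrenaline transporter of the cell surface, stood at 7.94, 7.93 and 7.88 after BL-8040 and at 8.16, 7.98 and 8.11 in controls. All treated values lay below all controls, the nearest control being replicate 2. The means were 7.92 ± 0.03 and 8.09 ± 0.09 (SD, n = 3 each), a difference of -0.17 with a 95% interval from -0.34 to -0.00146 (unadjusted p = 0.0484, limma adjusted p = 0.644). BL-8040 replicate 3 did not stand apart in SLC6A2, and the difference was -0.15 without it. With any 1 array left out it lay between -0.22 (without control replicate 2) and -0.13 (without control replicate 1, unadjusted p = 0.147). The unadjusted limma p of SLC6A2 was also above 0.05 with array weights (0.0676).

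MAOA, the oxidase of the outer mitochondrial membrane, stood at 6.37, 6.28 and 6.20 after BL-8040 and at 6.46, 6.67 and 6.39 in controls. The groups did not overlap, although BL-8040 replicate 1 lay only just below control replicate 3. The difference was -0.22, with a 95% interval from -0.44 to -0.01 (unadjusted p = 0.0396, limma adjusted p = 0.644). It was -0.18 without BL-8040 replicate 3 and -0.14 without control replicate 2, the highest array. The unadjusted limma p of MAOA was 0.155 without control replicate 2 and 0.110 without BL-8040 replicate 3. It was 0.0795 without BL-8040 replicate 2 and 0.0520 without control replicate 1. Without BL-8040 replicate 1 (0.0369) or control replicate 3 (0.0223) it stayed below 0.05. SLC6A2 and MAOA were the 2 of the 9 genes whose groups did not overlap, both with the treated tumours lower; among all genes 9.05% lay wholly lower, 4.93% wholly higher and 14.0% one or the other. For each the exact two-sided permutation p was 0.1. Of the 5 other measured breakdown enzymes, 2 were higher and 3 lower, with 0 at an unadjusted p under 0.05. MAOB, the second monoamine oxidase, was dim (percentile 12.8) and differed by 0.14, and ALDH2, an aldehyde dehydrogenase that oxidises the MAO product, differed by -0.07 at percentile 95.96.

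The 9 genes did not vary as one across the 6 tumours. TH, DDC, DBH and SLC18A1 varied closely together, with Pearson r between 0.979 (DBH and SLC18A1) and 0.997 (TH and DDC) in all 6 pairs among them. For these pairs the exact permutation p adjusted over all 36 pairs of the 9 genes was 0.0167, and 6 of 36 pairs passed at 0.05. Spearman's rho for them lay between 0.943 and 1, with adjusted exact permutation p of 0.1 and 0.05. Leaving out the 2 tumours farthest from the median of the first gene, BL-8040 replicate 3 and control replicate 2, left r between 0.940 and 0.996. Without BL-8040 replicate 3 alone r lay between 0.928 and 0.997, so this covariation did not rest on that array. Each group alone has 3 arrays, too few for a correlation within it. As a background, 4.25% of all other genes correlated with TH at r of at least 0.9, and 3.21% did so with DBH. Among genes at or above the median signal the shares were 7.14% with TH, 7.15% with DDC, 5.22% with DBH and 6.86% with SLC18A1. The limit of 0.9 is below the r of the 6 pairs, and no share was taken at a higher limit.

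SLC18A2 correlated with TH at r = 0.926 (rho = 0.714, exact permutation p = 0.0264 and 0.136, adjusted 0.119 and 0.288), but r was 0.442 without BL-8040 replicate 3 and control replicate 2. The relation of SLC18A2 to TH therefore rested on those tumours. GCH1 correlated with TH at 0.612 (rho = 0.771, exact permutation p = 0.213 and 0.103, adjusted 0.383 and 0.247) and at 0.609 without the same 2 tumours. MAOA correlated with TH at 0.725 (rho = 0.771, exact permutation p = 0.129 and 0.103, adjusted 0.274 and 0.247) and at 0.110 without them. SLC6A2 gave 0.499 (rho = 0.486, exact permutation p = 0.331 and 0.356, adjusted 0.496 and 0.427) and 0.251. PNMT gave -0.162 (rho = -0.543, exact permutation p = 0.843 and 0.297, adjusted 0.843 and 0.412) and -0.677.

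**Figure D2:**
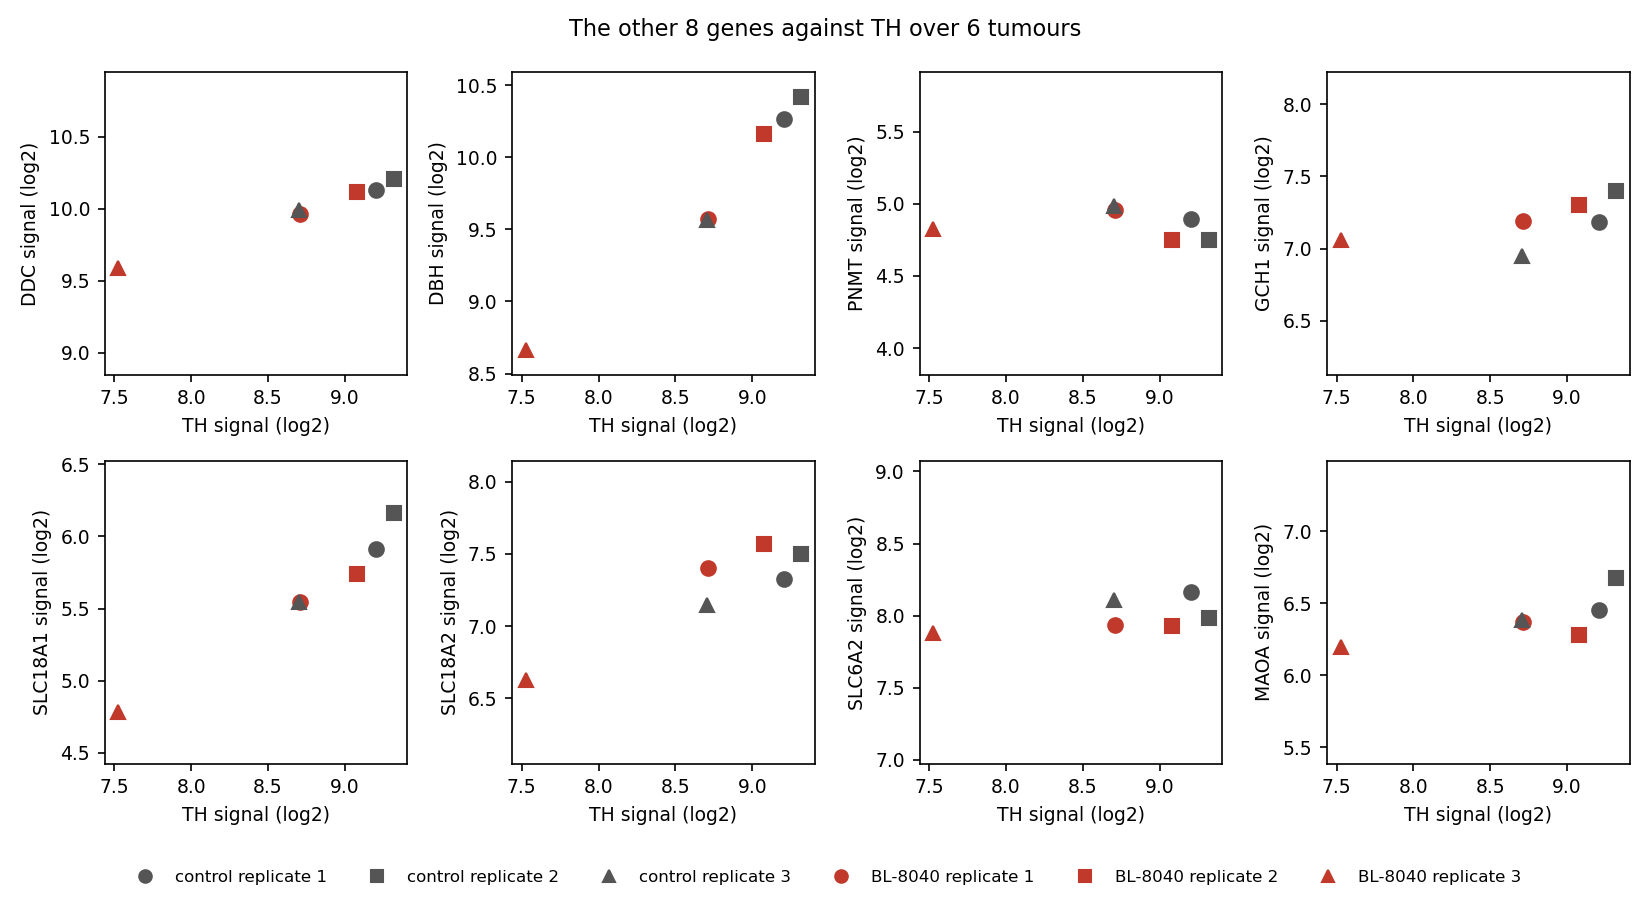
Signal (log2) of each of the other 8 genes against that of TH in the 6 tumours, 1 point per array; every vertical axis spans the same number of log2 units. DDC, DBH and SLC18A1 follow TH over all 6 tumours (r of 0.982 to 0.997), while SLC6A2 and PNMT do not.

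The genes most like each member were looked up among the genes at or above the median signal, by Pearson correlation over the 6 arrays, as a description only. With TH the closest of 9208 genes were PRPF4 (0.998), DDC (0.997) and OGFRL1 (0.996), so a second member of the pathway ranked among the top 3. With DDC they were IGFBP2 (0.998), TH and PRPF4 (0.996), and with DBH CCDC43 (0.998), TOP6BL (0.994) and HPCAL1 (0.993). No other member stood among the 3 closest genes of GCH1 (ZNF484, THUMPD3 and RREB1, 0.979 to 0.989), SLC18A2 (TET1, NANS and THAP7, 0.991 to 0.999), SLC6A2 (SYMPK, SNORD53 and SLC25A29, 0.980 to 0.994) or MAOA (KEAP1, PYM1 and MZT2A, 0.989 to 0.991). PNMT and SLC18A1 were below the median signal and were not looked up.

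Outside the 9 genes, 8 lists of the wider pathway held 66 genes, of which 56 were measured. In the treated tumours 19 of these were higher and 37 lower (median difference -0.06), with 0 higher and 4 lower at an unadjusted p under 0.05 (7.14%, against 7.72% of all genes). None had an adjusted p under 0.05. The 4 were ADRA2B, ADRA2C, DRD3 and HAND2. ADRA2C, an autoreceptor that restrains noradrenaline release, was 7.11 ± 0.05 against 7.29 ± 0.05 (SD, n = 3 each; difference -0.18, limma adjusted p = 0.644). ADRA2B differed by -0.19 (limma adjusted p = 0.644), and 6 of 8 measured adrenergic receptor genes were lower. All 5 dopamine receptor genes were lower. DRD3 differed by -0.21 at percentile 14.6, where signals are dim. DRD2, the autoreceptor for dopamine, had the lowest difference of the receptors, -0.40, which turned to 0.07 without BL-8040 replicate 3.

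Of 12 measured transcription factors known to act on catecholamine genes, 4 were higher and 8 lower. HAND2, a factor of the sympathetic lineage, was 8.33 ± 0.06 against 8.54 ± 0.12 (SD, n = 3 each), a difference of -0.21 (limma adjusted p = 0.644), and PHOX2A, an activator of DBH and TH, differed by -0.24 (limma adjusted p = 0.646). In HAND2 and PHOX2A the treated tumours lay below all controls, as in 9.05% of all genes. GATA3 differed by -0.11, GATA2 by -0.16, ISL1 by -0.08 and TFAP2B by -0.29 (-0.09 without BL-8040 replicate 3). CREB1, which binds the cyclic AMP element of the TH gene, differed by 0.01. EGR1, an immediate early factor, stood at 7.67, 10.70 and 7.58 after BL-8040 and at 7.53, 8.24 and 7.82 in controls (difference 0.79, limma adjusted p = 0.766). Only BL-8040 replicate 2 was high: the EGR1 difference was -0.24 without it and 1.32 without BL-8040 replicate 3. Of 10 measured kinases and partners of the TH protein, 5 were higher and 5 lower, between -0.09 (CAMK2A) and 0.15 (PPP2R2A, a subunit of the phosphatase that acts on TH). In PPP2R2A and in CDK5 (0.10), a kinase, the treated tumours lay above all controls, as in 4.93% of all genes. CYB561, which supplies electrons to DBH in the vesicle, differed by -0.27 (limma adjusted p = 0.646), while 3 of the 6 proton pump genes listed with it were higher, with differences of the 6 between -0.19 and 0.08.

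**Figure D3:**
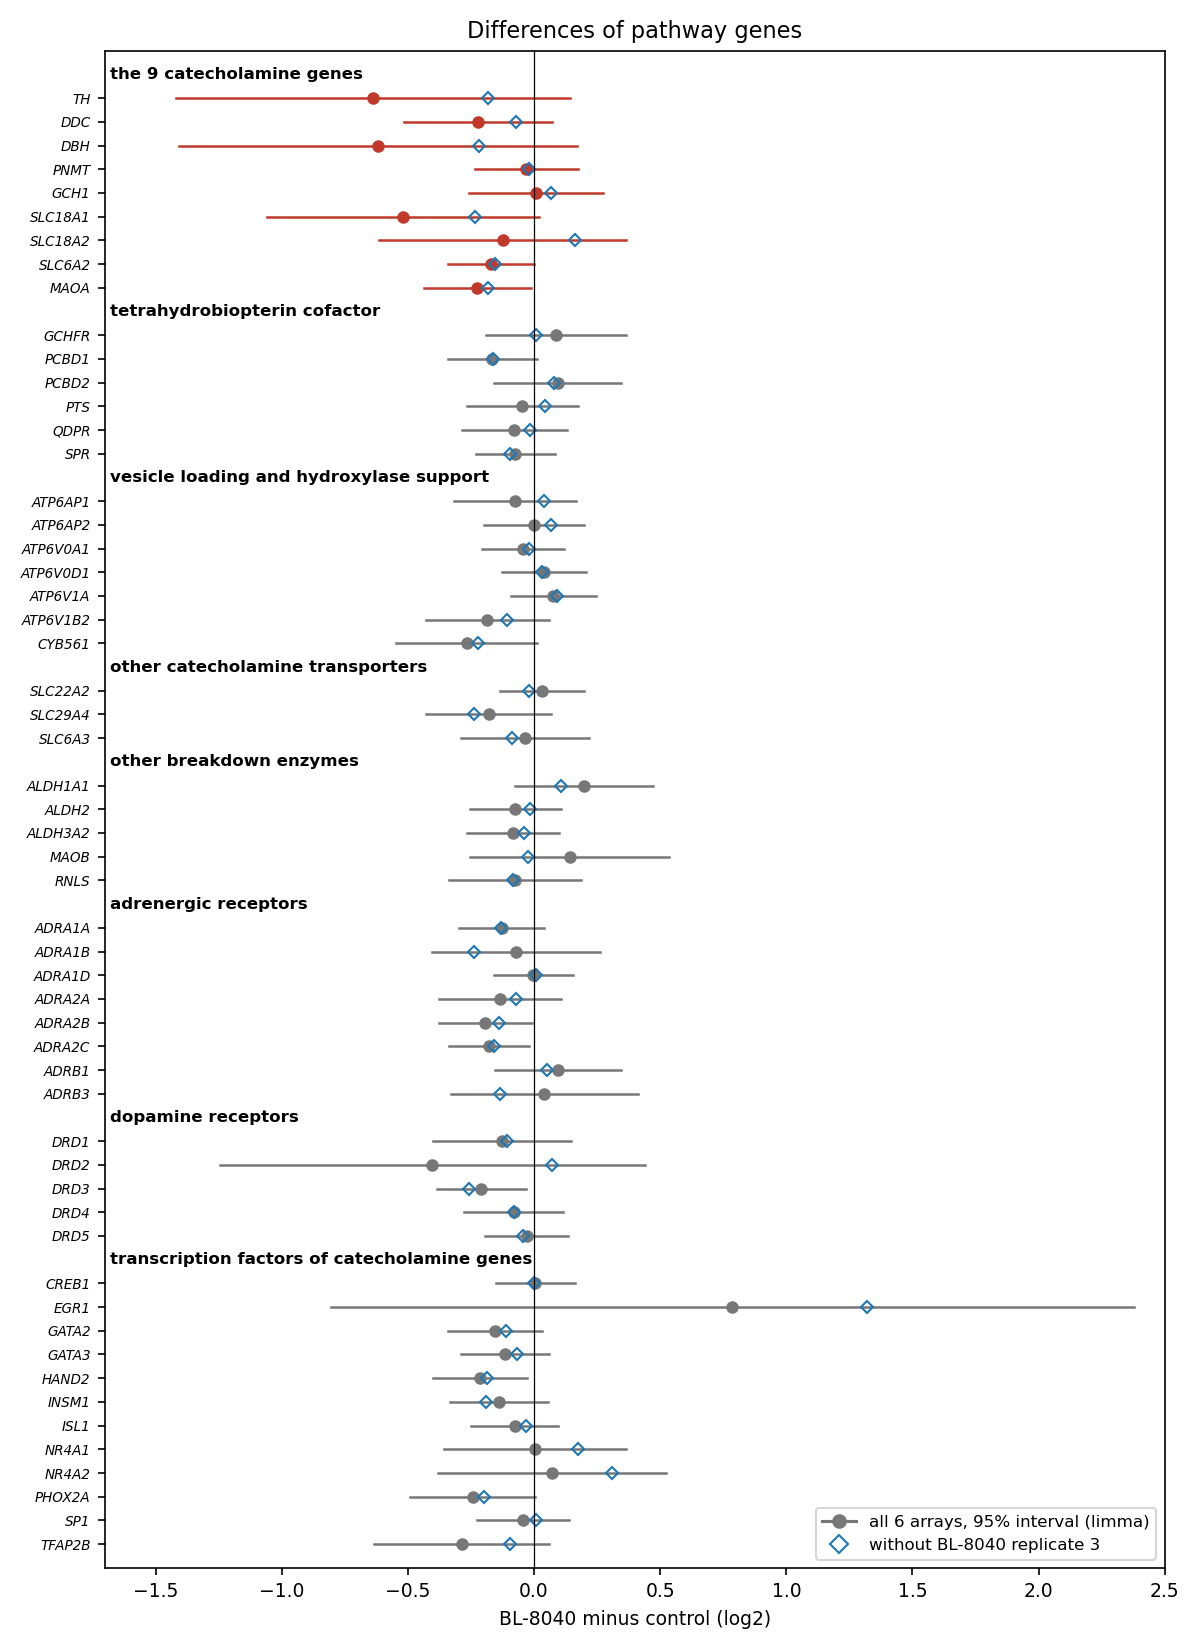
Difference between groups (BL-8040 minus control, log2) of the 9 genes and of 7 lists of the wider pathway, with the 95% interval of limma (3 arrays each); open diamonds leave out BL-8040 replicate 3. The intervals of TH, DBH and SLC18A1 are wide and their diamonds lie nearer to 0. SLC6A2 and MAOA have narrower intervals than TH, DBH and SLC18A1.

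Genes of the alternative transmitters gave a further comparison. Among 5 cholinergic genes, 1 was higher and 4 lower, with SLC18A3, the vesicular acetylcholine transporter, at 5.81 ± 0.07 against 6.07 ± 0.09 (SD, n = 3 each; difference -0.25, limma adjusted p = 0.644) and BCHE, a cholinesterase, at a difference of 0.25 (limma adjusted p = 0.646). The related hydroxylases TPH1 and TPH2, which begin serotonin synthesis, were among the dimmest genes (percentiles 4.34 and 4.51) and differed by 0.07 and 0.04. HDC, the histamine-forming enzyme, differed by -0.26 at percentile 17.6 (limma adjusted p = 0.644).

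Some other signals were, like TH, DBH and SLC18A1, lowest in BL-8040 replicate 3. The secretory granule proteins CHGA and CHGB, relative to their 6-array means, were -1.01 and -0.78 in BL-8040 replicate 3, where TH was -1.23, DBH -1.11 and SLC18A1 -0.83. Without that array the difference of CHGB went from -0.43 to -0.15 and that of CHGA from -0.40 to 0.00. The median of 14 measured hypoxia-induced genes was -0.47 in BL-8040 replicate 3, 0.37 in control replicate 2, the highest array for TH, and between -0.13 and 0.15 in the other 4. All 14 hypoxia genes had a difference below 0 (median -0.31), with 4 lower at an unadjusted p under 0.05, where 5.08% of all genes were, and 0 at an adjusted p under 0.05. Without BL-8040 replicate 3, 2 were higher and 12 lower, with a median of -0.18. The part of granule content or hypoxia in the catecholamine differences was not tested. The widest differences among the hypoxia genes were those of NDRG1 (-1.06), ADM (-0.80), VEGFA (-0.64), ANGPTL4 (-0.60) and SLC2A1 (-0.52). Without BL-8040 replicate 3 these went to -0.54, -0.35, -0.29, -0.27 and -0.26. ANKRD37 differed by -0.35, BNIP3 by -0.34 and PFKFB4 by -0.27 (-0.20, -0.17 and -0.19 without that array). In PFKFB4 the treated tumours lay below all controls, as in 9.05% of all genes. Of 9 measured neuroblastoma cell markers 1 was higher and 8 lower, with a median difference of -0.21 (-0.07, with 3 higher and 6 lower, without BL-8040 replicate 3). MYCN, the higher one, differed by 0.03, and STMN2, a neuronal gene, by -0.08.

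The tumours lay in an organ whose medulla makes catecholamines, so host markers were set beside the 9 genes. Of 9 measured adrenal cortex markers, 8 were dim, at percentiles from 8.58 (MC2R) to 32.6 (CYP11B1), including STAR and CYP11A1, and SCARB1, which tumour cells can express, was at 89.5. The sum of linear signals of the cortex list was 464 to 547 after BL-8040 and 513 to 575 in controls. SCARB1 carries most of this sum. No signal was at 0, since an array gives every probe set a value. The chromaffin list (7 of 7 measured, 0 higher and 7 lower) shares SLC18A1 and PNMT with the genes described here and CHGA and CHGB with the tumour cells; its median difference was -0.18. Without BL-8040 replicate 3, 1 was higher and 6 lower, with a median of -0.04. The chromaffin sum was 3865 in that array and 5358 and 5348 in the other treated tumours, against 5245 to 5923 in controls. DLK1, the brightest of the list (percentile 99.9), carries this sum, so it is mainly a reading of 1 gene. PENK was dim, at percentile 21.1. Fibroblast markers were 6 higher and 2 lower of 8, with a list median of 0.20 in BL-8040 replicate 3 against -0.14 to 0.08 in the other arrays and sums of 4586 to 5257 against 4553 to 4810. Without BL-8040 replicate 3 they were 3 higher and 5 lower, and their median difference turned from 0.08 to -0.01. COL1A2 differed by 0.34, and by -0.08 without that array. Endothelial markers were 4 higher and 6 lower of 10 (2 and 8 without BL-8040 replicate 3), with sums of 923 to 1147 against 808 to 872. EMCN, the brightest of them (percentile 96.3), lay wholly higher (difference 0.35, limma adjusted p = 0.644) and carries the sum. PECAM1 (-0.21), CDH5 (-0.11) and VWF (-0.08) lay wholly lower but were dim, at percentiles 18.8, 28.6 and 34.7. Over all genes, 4.93% lay wholly higher and 9.05% wholly lower. Myeloid markers were 5 higher and 4 lower of 9 (4 and 5 without BL-8040 replicate 3), with sums of 526 to 587 against 532 to 556. LYZ, dim at percentile 11.9, differed by 0.32 (limma adjusted p = 0.644), and by 0.24 without BL-8040 replicate 3. Schwann cell markers were 1 higher and 3 lower of 4 (0 and 4 without BL-8040 replicate 3), with sums of 106 to 107 against 111 to 120. They ranked at percentiles from 12.3 to 41.5. SOX10 lay wholly lower (difference -0.17, limma adjusted p = 0.644), as 9.05% of all genes did. The part of host or other cells in the catecholamine differences was not tested.

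**Figure D4:**
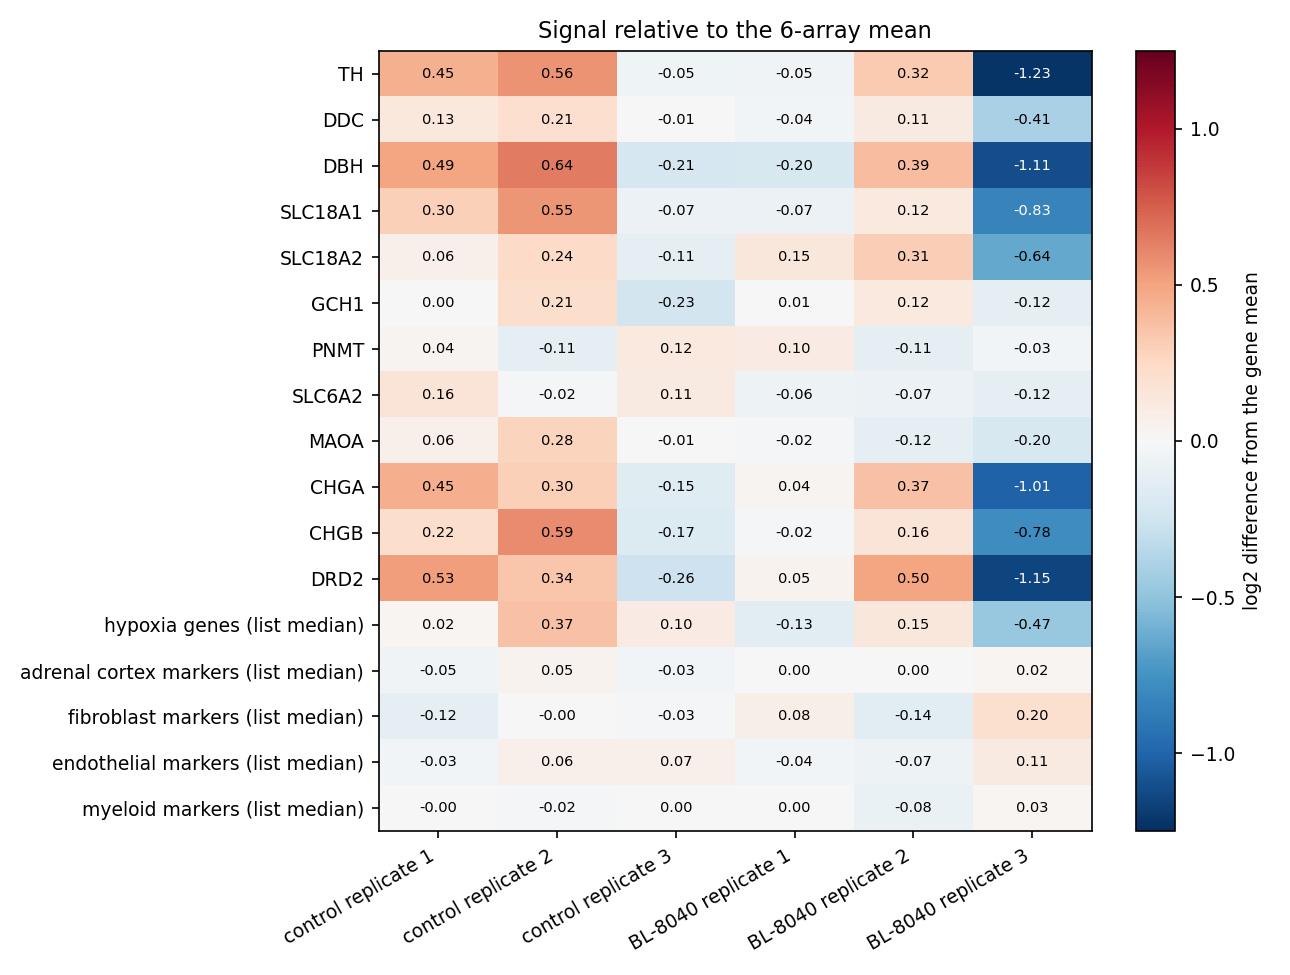
Signal of each gene relative to its mean over the 6 arrays (log2), and list medians of such values for hypoxia genes and host cell markers; columns are arrays. BL-8040 replicate 3 is lowest for TH (-1.23), DBH (-1.11), SLC18A1 (-0.83), CHGA, CHGB and DRD2, while PNMT and the adrenal cortex list stay near 0.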

How the data were processed

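RNA from 6 tumours was read on Affymetrix Human Gene 1.0 ST arrays, per the series' design text. The authors deposited 1 table of log2 values, an array in each column, whose scale was judged from its range and quartiles. The submitters' processing notes name Partek 6.6. Background correction, normalization and probe summarization: not given in the sources used here. Groups and replicate numbers came from the sample titles. No detection call was available, and the values were not normalized again.

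Of 33297 probe sets, 19460 have 1 gene symbol in the platform annotation, 1754 several and 12083 none; only the first kind was used, and the brightest probe set per gene was kept (18417 genes). Groups of 3 arrays were compared two-sided with limma 3.58.1 (lmFit, eBayes; R 4.3.3), without a replicate block, with Benjamini-Hochberg adjustment over all genes. Differences are BL-8040 minus control, and folds are their antilog. The fit was tested on simulated arrays of 18417 genes, where it called 94% of genes changed by 1 log2 unit and 10 unchanged genes. The simulated noise was drawn separately for each gene, so variation shared by the genes of an array was left out. The 94% holds for a change of that size only. The catecholamine genes differed by less, the lowest difference being -0.64 (TH). The within-group SD of TH (0.618) and DBH (0.623) was also far above the median of all genes (0.106). The 94% therefore does not give the chance of calling the differences of these genes. Precision is limited by the number of arrays: for the median gene the 95% interval extended 0.197 log2 units either way. Since 3 mice per group are named, the spread between arrays holds that between animals.

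The 9 genes and the lists were chosen with earlier results of these data known. Outside the 9, genes were named at an unadjusted p under 0.05, at a difference of at least 0.3 log2 units, or to complete a list of at most 10 genes; PHOX2A, TFAP2B, GATA2, GATA3, ISL1, CREB1, CAMK2A, PPP2R2A and the markers were named after their values were seen. Listed genes without a single-symbol probe set in the tables used were not analysed here. Alternatives were filters on dim genes, the mean of probe sets, quantile normalization, median centring, trend with robust moderation, array weights, a replicate block and leaving out each array; correlations and ratios without arrays were added after the data were seen.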

Additional observations from a re-analysis of the deposited data

How the results depend on the processing

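Over the alternatives 0 genes passed an adjusted p under 0.05 in limma, and the smallest adjusted p of any gene was 0.224 (without BL-8040 replicate 1). The median difference of the 9 genes was lowest, at -0.31, without BL-8040 replicate 2 and nearest to 0, at -0.15, when BL-8040 replicate 3 was left out. Genes lower at an unadjusted p under 0.05 numbered 935; they were 362 among genes at or above the median signal and 371 among genes of mean log2 at least 6, with 9209 and 9360 genes tested, and from 578 (without control replicate 2) to 1135 (without control replicate 1) with 1 array left out. The differences of GCH1, PNMT and SLC18A2 changed sign, and the cause was not tested. With array weights PNMT went from -0.03 to 0.00996 and SLC18A2 from -0.12 to 0.00884. With 1 array left out, GCH1 (0.01) lay between -0.11 (control replicate 3 out) and 0.12 (control replicate 2 out), with -0.05 when BL-8040 replicate 2 was out. PNMT lay between -0.0950 (control replicate 2 out) and 0.0229 (control replicate 3 out), with 0.0178 when BL-8040 replicate 2 was out. SLC18A2 lay between -0.31 (BL-8040 replicate 2 out) and 0.16 (BL-8040 replicate 3 out). TH, DDC, DBH, SLC18A1, SLC6A2 and MAOA kept a difference below 0 under every alternative run. Over all genes, the deviations of same-numbered arrays from their group means correlated at r of -0.04, 0.02 and 0.08. These values cannot settle whether the numbers pair the arrays. In both groups TH, DBH, DDC and SLC18A1 were highest in replicate 2 and lowest in replicate 3. With the replicate block in limma, 486 genes were higher and 1002 lower at an unadjusted p under 0.05, and 5 of the 9 genes reached it, against 2 without: TH, DDC, DBH and SLC18A1 were gained, MAOA was kept and SLC6A2 was lost. Replicates numbered 3 correlated best with each other, and those numbered 1 and 2 did not.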
